A study of Homo sapiens with 8 samples.

Results

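Genes of neurotransmitter receptors were examined in NTera2/D1, an established line of human embryonal carcinoma. Its cells resemble pluripotent stem cells and differentiate, in part into neurons, when retinoic acid (RA) is added. The members were all genes whose symbol in the array's annotation begins with the root of a GABA-A or GABA-B receptor subunit (GABRA, GABRB, GABRG, GABBR), a glycine receptor alpha subunit (GLRA), an ionotropic or metabotropic glutamate receptor (GRIA, GRIK, GRIN, GRM), a nicotinic or muscarinic acetylcholine receptor (CHRNA, CHRNB, CHRM), or a serotonin (HTR), dopamine (DRD) or adrenergic receptor (ADRA, ADRB). They numbered 90 of 19426 genes. The same roots also took in 2 kinases that switch off activated receptors, GRK2 and GRK3, whose older symbols begin with ADRB, and the pseudogenes HTR7P1 and DRD5P1. The cells carried a small interfering RNA against RNF20 (siRNF20), the ligase that attaches ubiquitin to histone H2B, or against the bacterial gene LacZ (siLacZ, the control), and were given DMSO, the solvent, or 10 µM RA for 72 h. Each of the 4 groups (DMSO siLacZ, RA siLacZ, DMSO siRNF20, RA siRNF20) held 2 biological duplicates, numbered GF117 and GF120, all of this 1 cell line and each on 1 Affymetrix exon array.

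Neurotransmitter receptors are either channels or coupled to G proteins. Ligand-gated ion channels are built from several subunits around a pore and answer within milliseconds, as the GABA-A, glycine, nicotinic, serotonin HTR3 and ionotropic glutamate receptors do. The others couple to G proteins and act more slowly, as do GABA-B, metabotropic glutamate, muscarinic, dopamine, adrenergic and most serotonin receptors. Receptor subunit genes are known mainly from neurons and muscle, and several are also transcribed in stem cells and neural progenitors before synapses form.

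One array, GF117 of RA siLacZ cells, was unlike the rest: its gene values correlated with theirs at Pearson r = 0.135 to 0.239 over all genes, against 0.908 to 0.975 among the 7. Values below come from the 7 arrays, so that RA siLacZ cells are represented by the GF120 array alone, whose spread is taken to be that of the other groups, and values over all 8 arrays are given beside the genes called in siLacZ cells. A gene's value is the median log2 intensity of its array rows (probe sets) brighter than the median row, which stood at a log2 intensity of 4.10 to 4.11 on the 7 arrays. RNF20 read 8.24 and 8.09 with siLacZ in DMSO and 8.10 with siLacZ in RA, against 6.48, 5.98, 6.27 and 5.89 with siRNF20; the GF117 RA siLacZ array read 6.08. RNF20 itself did not pass the test across all genes that is used below (log2 -1.94 in DMSO and -2.02 in RA, SE 0.23 and 0.29, adjusted p = 0.237 and 0.110). A log2 difference was called below an adjusted p of 0.05 (limma, two-sided, Benjamini-Hochberg adjustment over all 18732 genes tested). Of the embryonal carcinoma markers, 6 of 10 fell with RA in siLacZ cells and 6 of 10 in siRNF20 cells, among them NANOG (log2 -3.82 and -2.76). Of the 11 neuron markers measured DCX rose in both (2.55 and 1.55) and MAP2 in siRNF20 cells (1.32). The others were not called, and the median difference over the 11 was 0.07 in siLacZ and 0.39 in siRNF20 cells. The summed intensity of the neuron markers was 877 to 1104 in DMSO siLacZ, 1456 in RA siLacZ, 1027 to 1379 in DMSO siRNF20 and 1329 to 1631 in RA siRNF20 cells. Much of the siLacZ rise in this sum came from DCX, at 6.25 and 6.16 in DMSO and 8.75 in RA. The summed intensity of the 7 glial markers, of which 0 were called with RA, stayed within 464 to 622 on all 7 arrays. The part of either in the results below was not tested, and in such bulk samples fewer cells of a type and less RNA per cell cannot be told apart.

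Much of the receptor signal was dim. Of 1462 array rows of the members 859 (58.8%) were brighter than the median row, against 78.3% of all named rows. In all 89 of the 90 members had a value. DRD5P1 had no row left, 6 members had 1 row and 20 had 2 to 4. A value rests only on rows brighter than the median row, whereas the upper quartile used here is that of all rows. The share of all genes above it was not counted. The value lay above this upper quartile (log2 5.78) on every one of the 7 arrays for 19 members. These were the channel subunit genes GABRA5, GABRA6, GRIN2A, GRIN3B, GRIK5, CHRNA5, CHRNB1 and CHRNB2, the G protein-coupled receptor genes GABBR1, GRM4, CHRM3, HTR1B, HTR1D, DRD5, ADRA1B, ADRA1D and ADRA2C, and both kinase genes. The fewest rows kept among them were 3 of 13 for GABRA6 and 3 of 6 for DRD5.

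RA raised 3 receptor genes in siLacZ cells, the serotonin receptor gene HTR1D and the nicotinic subunit genes CHRNA3 and CHRNB4, and lowered 5, GABRA5, HTR3A, GABBR1, ADRA2C and GLRA4. These 8 were 8.99% of the 89 members measured, and 3.91% of all genes were called in that comparison, 1.88% higher and 2.03% lower. In siRNF20 cells RA raised HTR1D and CHRNA3 and lowered GABRA5, HTR3A and GABBR1, 5.62% of the members against 3.92% of all genes (1.79% higher and 2.13% lower). All 5 also belonged to the 8 of siLacZ cells. The comparisons share no array, but they share the same fit, its estimate of each gene's spread and the filter on dim rows. The overlap is thus not an independent repeat. With all 8 arrays 0 members and 0 of all genes were called by limma in either background. Leaving out GF117 or GF120 of DMSO siLacZ left 5 and 4 members called in siLacZ cells, and leaving out GF117 of DMSO siRNF20 left 2 in siRNF20 cells. The calls over all genes fell as well in these fits, from 733 to 317 and 389 and from 734 to 324. The median log2 difference over the members was -0.15 in siLacZ and -0.08 in siRNF20 cells, and over all genes -0.05 and -0.03. Of the members 7 read higher in each of the 3 RA arrays than in each of the 4 DMSO arrays (7.87%, against 8.07% of all genes) and 17 read lower (19.1%, against 12.6%).

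**Figure D1:**
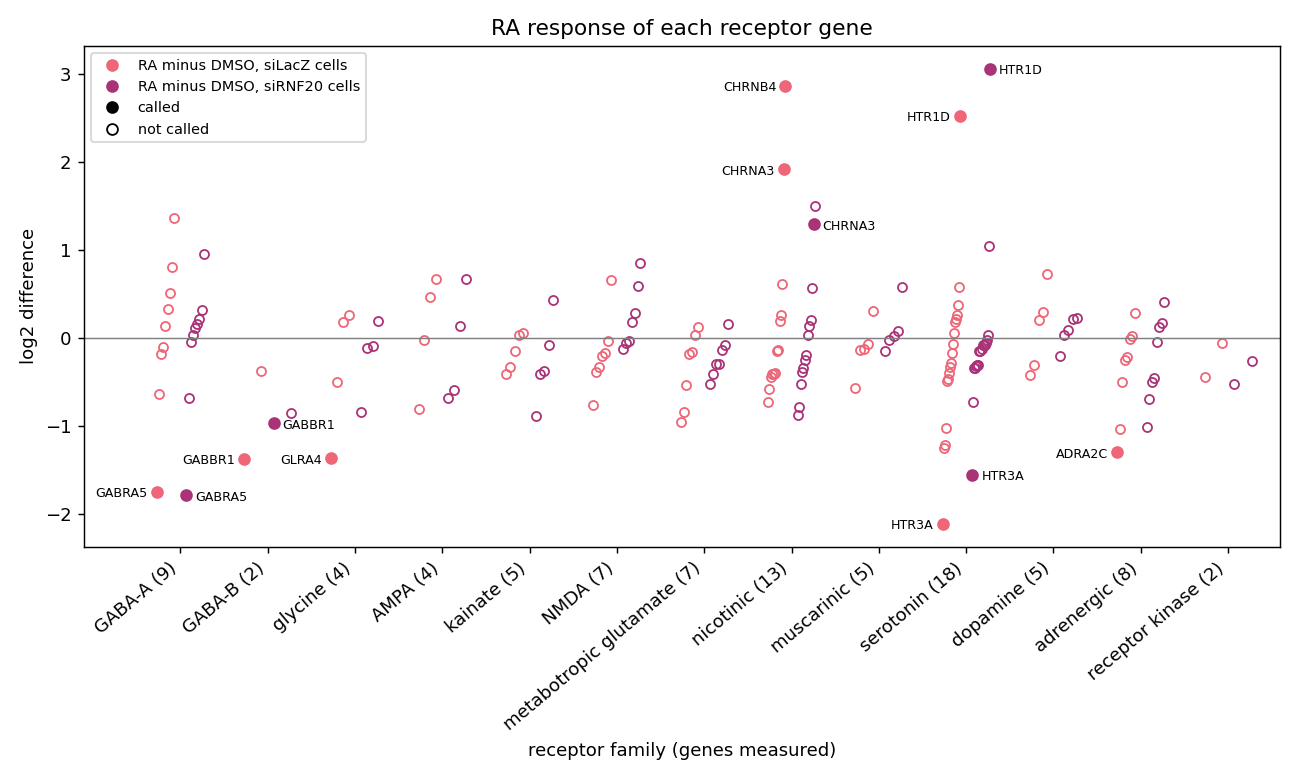
RA minus DMSO log2 difference (vertical axis) of each of the 89 members measured, by family (horizontal axis, with the number of genes). Left points of a family are siLacZ cells (1 RA and 2 DMSO arrays) and right points siRNF20 cells (2 and 2 arrays). Filled points were called and carry names. The called genes lie at 1.29 and above or at -0.97 and below, and most other points lie within 1 of 0.

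HTR1D, a receptor that couples to inhibitory G proteins and damps transmitter release, had the largest increase of the members in siRNF20 cells. It read 6.65 and 6.65 in DMSO siLacZ cells (GF117, then GF120), 9.18 in RA siLacZ, 6.16 and 6.48 in DMSO siRNF20 and 9.71 and 9.07 in RA siRNF20. The 3 RA arrays lay above all 4 DMSO arrays with no overlap. HTR1D rose by 2.53 in siLacZ cells (SE 0.29, adjusted p = 0.00124, n = 1 and 2), or 5.77-fold, and by 3.06 in siRNF20 cells (SE 0.24, adjusted p = 0.000141, n = 2 and 2), or 8.36-fold. The responses differed by 0.54 (SE 0.37, adjusted p = 0.999). All 4 of its array rows were higher in every RA array than in every DMSO array, a pattern held by 6.97% of all rows kept. The left-out GF117 RA siLacZ array read 5.71, below the DMSO arrays, and the siLacZ difference over all 8 arrays was 0.79 (adjusted p = 0.633). Its close relative HTR1B, which also couples to inhibitory G proteins, read 7.58 in RA siLacZ against 8.76 and 8.45 in DMSO siLacZ, and 7.63 and 8.50 in RA siRNF20 against 8.82 and 8.75, which did not pass (log2 -1.02 and -0.72, adjusted p = 0.135 and 0.209).

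CHRNA3 and CHRNB4 encode the alpha and beta subunits of the nicotinic receptor of autonomic ganglia, and in the RefSeq gene table they are neighbours of CHRNA5 on chromosome 15. CHRNA3 read 5.76 and 5.46 in DMSO siLacZ cells, 7.53 in RA siLacZ, 6.23 and 5.85 in DMSO siRNF20 and 7.07 and 7.60 in RA siRNF20. CHRNA3 rose by 1.92 (SE 0.31, adjusted p = 0.00907), or 3.78-fold, in siLacZ and by 1.29 (SE 0.25, adjusted p = 0.0214), or 2.45-fold, in siRNF20 cells. CHRNB4 read 4.57 and 4.11 in DMSO siLacZ, 7.21 in RA siLacZ, 4.44 and 5.22 in DMSO siRNF20 and 5.87 and 6.80 in RA siRNF20. For both genes every RA array lay above every DMSO array. CHRNB4 rose by 2.87 in siLacZ cells (SE 0.46, adjusted p = 0.00882), from values at or close to the median row (4.11 and 4.57 in DMSO), and 4 of its 11 rows were not above the median row in the DMSO arrays, so no fold is given. Its difference of 1.504 in siRNF20 cells did not pass (SE 0.38, adjusted p = 0.0633). It passed in 5 of 16 alternatives, over which it ran from 0.47 to 2.13. Among those 5 were the fit without GF120 RA siLacZ (1.63, adjusted p = 0.0176) and the mean of the rows (1.83, adjusted p = 0.0204). With 1 array left out the CHRNB4 difference in siRNF20 cells ran from 1.08 to 2.13. It was 2.13 without GF117 RA siRNF20 and 1.90 without GF120 DMSO siRNF20. The CHRNB4 responses differed by -1.36 (SE 0.60, adjusted p = 0.999), so that a smaller response in siRNF20 cells was not shown. The third gene of the neighbourhood, CHRNA5, which encodes an accessory subunit, read 7.91 and 7.90 in DMSO siLacZ, 7.50 in RA siLacZ, 8.005 and 8.11 in DMSO siRNF20 and 7.52 and 7.56 in RA siRNF20. Its differences of -0.41 and -0.52 had the other sign and did not pass (SE 0.21 and 0.17, adjusted p = 0.382 and 0.155). The gene models of CHRNA5 and CHRNA3 overlap, so that rows in the shared stretch may belong to both. Without the GF120 DMSO siLacZ array the siLacZ calls of CHRNA3 (1.77, adjusted p = 0.0557) and CHRNB4 (2.64, adjusted p = 0.0527) ended, and so did the CHRNA3 call in siRNF20 cells without GF117 DMSO siRNF20 (1.48), GF120 DMSO siRNF20 (1.10) or GF120 RA siRNF20 (1.03). With a stricter filter on dim rows CHRNB4 stood at 0.83 (adjusted p = 0.392), and with all 8 arrays CHRNA3 stood at 1.22 and CHRNB4 at 1.28 in siLacZ cells.

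**Figure D2:**
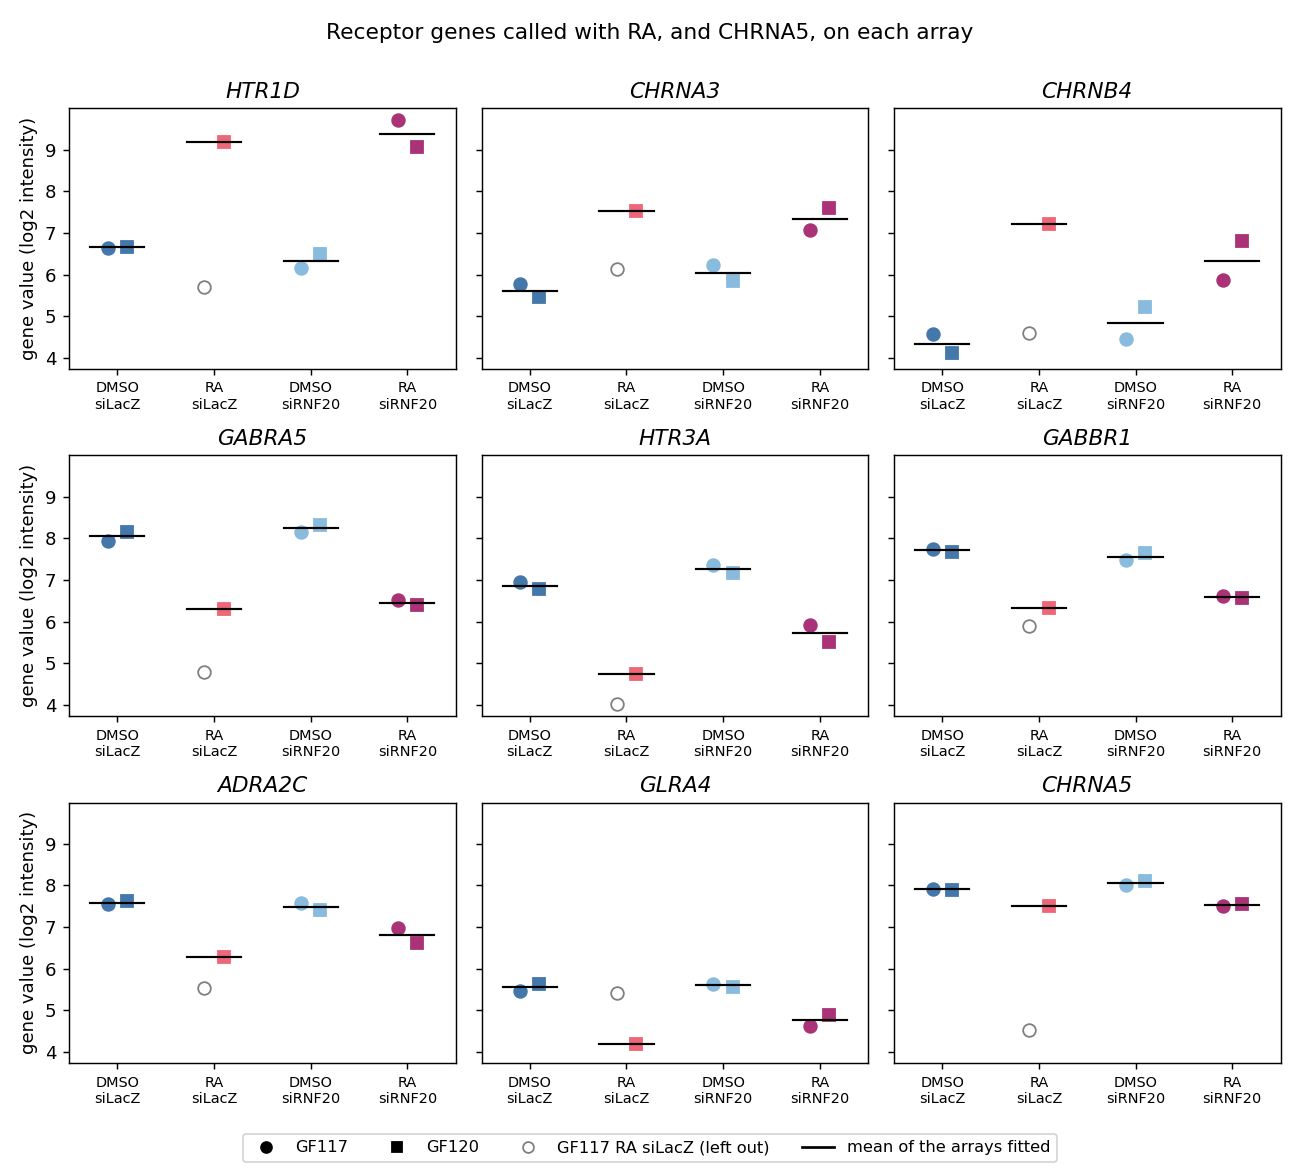
Gene value (log2 intensity, vertical axis) of the 8 receptor genes called with RA and of CHRNA5 on each array, by group (horizontal axis); circles are GF117, squares GF120, lines the mean of the arrays fitted and the open grey circle the left-out GF117 RA siLacZ array. HTR1D, CHRNA3 and CHRNB4 are higher on all 3 RA arrays fitted than on the 4 DMSO arrays, and the other 6 genes are lower on them.

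The single array rows showed how even these changes were along a gene. In CHRNA3 10 of 14 rows were higher in all 3 RA arrays than in all 4 DMSO arrays, with row differences from 0.04 to 2.85 in siLacZ and from -0.58 to 2.40 in siRNF20 cells. In CHRNB4 it was 8 of 11 rows, and the rows spread widely, from -0.19 to 6.13 in siLacZ and from 0.27 to 3.78 in siRNF20 cells. Of these 11 rows, 4 were not above the median row over the DMSO arrays. Those 4 passed the filter through the RA arrays and had to be higher there on average. CHRNA5 had 0 of 13 rows higher in all 3 RA arrays than in all 4 DMSO arrays and 6 lower. Of all rows kept 9.72% were lower. In GABRA5 17 of 18 rows were lower, in HTR3A 9 of 12, in GABBR1 19 of 29, in ADRA2C 6 of 11 and in GLRA4 3 of 10. How many of their rows were not above the median row over the RA arrays was not counted. Any such row passed the filter through the DMSO arrays and had to be lower with RA on average.

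**Figure D3:**
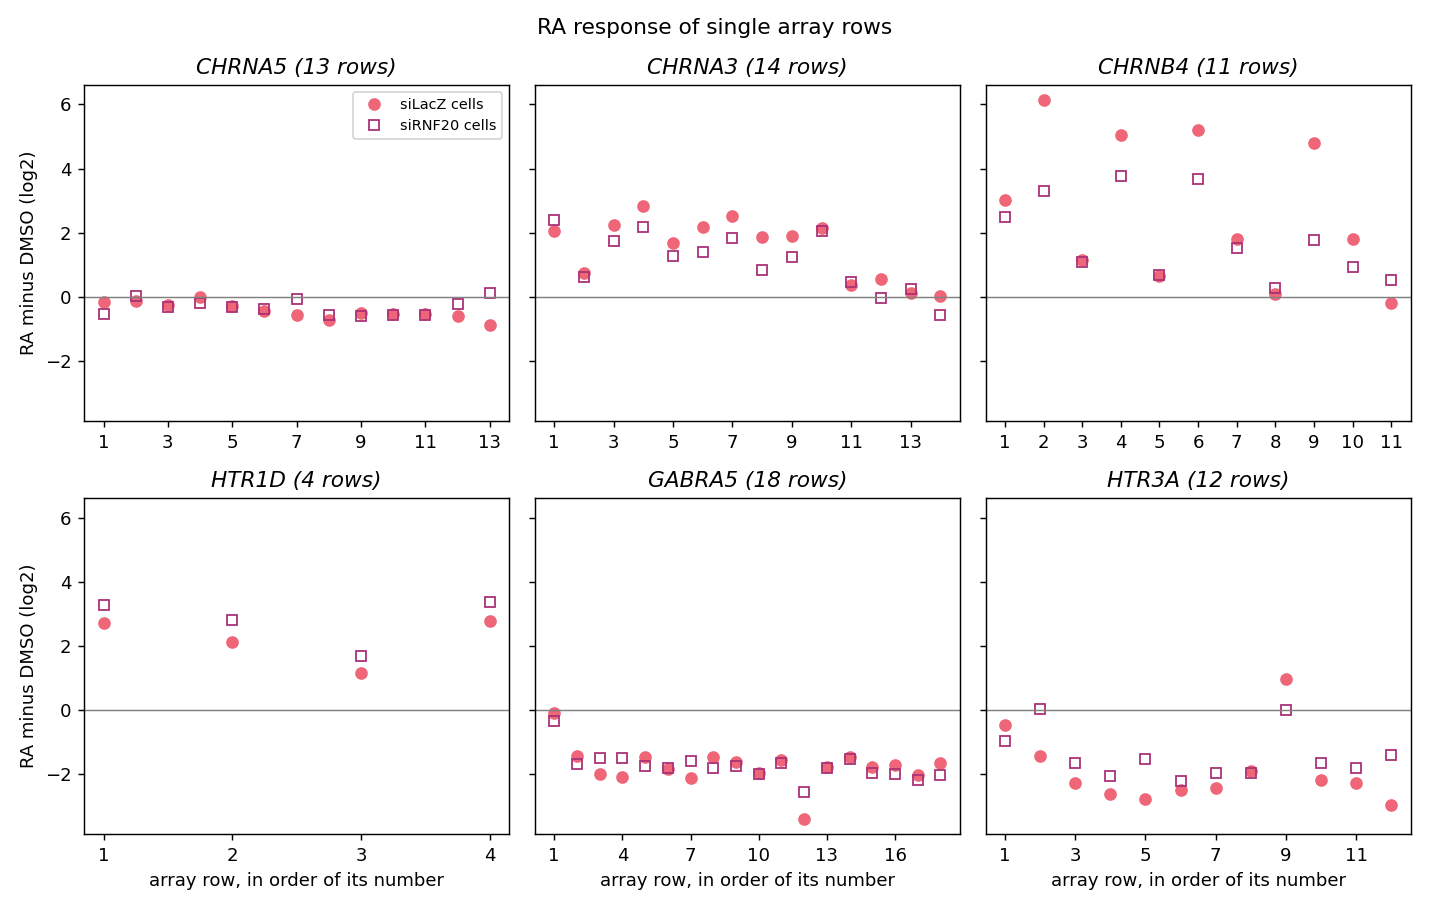
RA minus DMSO log2 difference (vertical axis) of each array row kept, in order of its row number (horizontal axis), for 6 receptor genes; filled circles are siLacZ cells and open squares siRNF20 cells. Rows of CHRNA3 and CHRNB4 lie mostly above 0 and those of CHRNA5 between -0.89 and 0.11, while 17 of 18 rows of GABRA5 were lower on every RA array.

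Of the 8 genes called, 5 had an entry in the RefSeq promoter table. The 250 bases before the start of each are shown because CHRNA3, CHRNB4 and HTR1D rose and GABBR1 and ADRA2C fell, so that the letters of genes that went opposite ways can be set side by side. Capitals mark GGGCGG (the GC box, to which SP1 binds) and CAGCTG (an E-box), searched on both strands, with overlapping copies counted.
CHRNA3, GRCh38.p14, chr15:78620997-78621246, minus strand: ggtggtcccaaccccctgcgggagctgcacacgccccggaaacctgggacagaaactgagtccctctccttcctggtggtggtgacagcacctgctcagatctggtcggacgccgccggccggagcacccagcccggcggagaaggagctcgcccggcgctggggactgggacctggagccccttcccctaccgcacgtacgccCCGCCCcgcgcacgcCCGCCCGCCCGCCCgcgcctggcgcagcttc
CHRNB4, GRCh38.p14, chr15:78641211-78641460, minus strand: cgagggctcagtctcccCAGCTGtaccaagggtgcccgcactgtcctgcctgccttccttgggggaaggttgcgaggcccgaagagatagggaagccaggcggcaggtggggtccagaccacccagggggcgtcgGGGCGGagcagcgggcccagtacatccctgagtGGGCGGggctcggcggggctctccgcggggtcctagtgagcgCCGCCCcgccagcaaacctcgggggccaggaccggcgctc
HTR1D, GRCh38.p14, chr1:23217503-23217752, minus strand: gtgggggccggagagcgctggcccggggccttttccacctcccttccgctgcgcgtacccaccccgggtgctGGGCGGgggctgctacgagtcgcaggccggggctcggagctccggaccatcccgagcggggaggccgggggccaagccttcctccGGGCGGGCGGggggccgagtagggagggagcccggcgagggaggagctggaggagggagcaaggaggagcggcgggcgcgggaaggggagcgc
GABBR1, GRCh38.p14, chr6:29628014-29628263, minus strand: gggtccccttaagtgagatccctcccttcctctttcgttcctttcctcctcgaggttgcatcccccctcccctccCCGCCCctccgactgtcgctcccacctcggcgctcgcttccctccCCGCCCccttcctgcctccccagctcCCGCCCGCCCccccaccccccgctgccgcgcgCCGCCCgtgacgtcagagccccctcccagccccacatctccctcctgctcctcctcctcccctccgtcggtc
ADRA2C, GRCh38.p14, chr4:3766135-3766384, plus strand: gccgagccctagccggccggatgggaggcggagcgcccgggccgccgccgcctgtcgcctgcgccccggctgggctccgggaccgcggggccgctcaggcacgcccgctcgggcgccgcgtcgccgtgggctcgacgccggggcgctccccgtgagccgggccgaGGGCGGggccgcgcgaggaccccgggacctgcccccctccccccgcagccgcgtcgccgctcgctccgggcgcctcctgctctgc

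The GC box was present in all 5 windows, both those of genes that rose and those of genes that fell, and in 42.3% of 27305 promoter windows of this length and 52.9% of the 68 member windows in the table. Its copies numbered 4 in CHRNA3, 3 in CHRNB4, 3 in HTR1D, 5 in GABBR1 and 1 in ADRA2C. The E-box letters were found in CHRNB4 alone of the 5, and in 13.8% of all windows. The half-site letters of retinoic acid receptors, AGGTCA (12.1% of all windows) and AGTTCA (8.9%), were in none of the 5, nor was the octamer ATGCAAAT (1.7%). The windows were rich in G and C, at 73.6% (CHRNA3), 72.4% (CHRNB4), 77.6% (HTR1D), 72.4% (GABBR1) and 84.8% (ADRA2C), against medians of 58.0% over all windows and 63.2% over the member windows. No letters in such a short window show or exclude a binding site.

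GABRA5 fell with RA in both backgrounds. It encodes the alpha-5 subunit of GABA-A receptors, which in the brain mostly lie outside synapses. It read 7.95 and 8.16 in DMSO siLacZ, 6.31 in RA siLacZ, 8.15 and 8.33 in DMSO siRNF20 and 6.52 and 6.39 in RA siRNF20. The groups with RA and with DMSO did not overlap. Its log2 difference was -1.75 in siLacZ (SE 0.23, adjusted p = 0.00284) and -1.78 in siRNF20 cells (SE 0.19, adjusted p = 0.000769), and the responses differed by -0.04 (SE 0.30, adjusted p = 0.999). With all 8 arrays the siLacZ value was -2.51 (adjusted p = 0.440). Its neighbour on chromosome 15, GABRG3, stood at -0.18 and -0.04. The other 8 GABA-A genes measured did not pass, with differences from -0.63 (GABRB1) to 1.36 (GABRB2) in siLacZ cells. GABRB2, a beta subunit of the commonest GABA-A receptors, read 5.37 and 5.15 in DMSO siLacZ, 6.63 in RA siLacZ, 5.30 and 5.44 in DMSO siRNF20 and 6.79 and 5.86 in RA siRNF20. All 3 RA arrays lay above the DMSO arrays, but its differences of 1.36 (SE 0.38) and 0.96 (SE 0.31) had an adjusted p of 0.0903 and 0.145. With all 8 arrays it stood at -0.11 in siLacZ cells. Of its 16 rows kept, 3 were not above the median row over the DMSO arrays. Those 3 passed the filter through the RA arrays and had to be higher there on average.

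GABBR1, an obligate subunit of the G protein-coupled GABA-B receptor, fell as well. It read 7.75 and 7.67 in DMSO siLacZ, 6.34 in RA siLacZ, 7.47 and 7.65 in DMSO siRNF20 and 6.62 and 6.56 in RA siRNF20, with no overlap between RA and DMSO. The log2 difference was -1.37 with siLacZ (SE 0.23, adjusted p = 0.00974) and -0.97 with siRNF20 (SE 0.19, adjusted p = 0.0192). Its partner GABBR2 also read lower on all 3 RA arrays, at -0.37 and -0.85, without passing (adjusted p = 0.690 and 0.171). With all 8 arrays GABBR1 stood at -1.57 in siLacZ cells (adjusted p = 0.440). Without the GF117 DMSO siLacZ array its call in siLacZ cells ended (-1.33, adjusted p = 0.0666), and in siRNF20 cells it ended without GF117 DMSO siRNF20 (-0.95), GF120 DMSO siRNF20 (-0.89) or GF120 RA siRNF20 (-0.94).

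Among the 4 glycine receptor genes GLRA4, an alpha subunit gene that in humans is held to be a pseudogene, read 5.48 and 5.64 in DMSO siLacZ, 4.20 in RA siLacZ, 5.64 and 5.56 in DMSO siRNF20 and 4.63 and 4.90 in RA siRNF20. All lie between the median row and the upper quartile. Its difference of -1.36 passed in siLacZ cells (SE 0.32, adjusted p = 0.0458) and its difference of -0.84 in siRNF20 cells did not (adjusted p = 0.128). It passed in 4 of 15 alternatives and ended without any one of 4 single arrays (both DMSO siLacZ and both DMSO siRNF20 arrays, adjusted p up to 0.181) and with all 8 arrays (-0.64), the stricter filter (-0.48), no filter (-1.26), the mean of the rows (-0.95), an offset of 16 (-0.90) or quantile normalization (-1.29). GLRA1, GLRA2 and GLRA3 stood between -0.50 and 0.26 in siLacZ cells.

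HTR3A, the subunit that every serotonin-gated HTR3 channel contains, had the largest decrease of the members in siLacZ cells. It read 6.96 and 6.77 in DMSO siLacZ, 4.75 in RA siLacZ, 7.36 and 7.18 in DMSO siRNF20 and 5.92 and 5.52 in RA siRNF20. The RA values lay below all DMSO values, and the siRNF20 values lay above the siLacZ ones at each treatment. The log2 difference of HTR3A was -2.11 with siLacZ (SE 0.28, adjusted p = 0.00263) and -1.55 with siRNF20 (SE 0.22, adjusted p = 0.00439), and the responses differed by 0.56 (SE 0.36, adjusted p = 0.999). Over all 8 arrays HTR3A stood at -2.48 in siLacZ cells (adjusted p = 0.206), and without the GF117 DMSO siRNF20 array the siRNF20 call ended (-1.46, adjusted p = 0.0512). HTR3B, its neighbour on chromosome 11 and its partner in mixed channels, stood at 0.22 and -0.15. HTR3C, HTR3D and HTR3E lay between -0.40 and 0.06 in both backgrounds.

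Of the 18 serotonin receptor genes measured, the pseudogene HTR7P1 included, HTR1D and HTR3A alone passed. HTR5A, which rests on 1 row, read 6.31 and 6.22 in DMSO siLacZ and 5.05 in RA siLacZ (-1.21, SE 0.29, adjusted p = 0.0521), but 6.07 and 5.90 in DMSO siRNF20 and 5.79 and 6.24 in RA siRNF20 (0.03). The responses of HTR5A differed by 1.25 (SE 0.37, unadjusted p = 0.00812 by limma, adjusted p = 0.950), the highest such difference of a member. HTR2C read 5.55 and 5.05 in DMSO siLacZ against 4.05 in RA siLacZ (-1.25, adjusted p = 0.105) and stood at -0.31 in siRNF20 cells. HTR2B, with 1 row, stood at 1.04 in siRNF20 cells (SE 0.56, adjusted p = 0.441) and at -0.0074 with no filter on dim rows. Leaving out 1 array moved it from 0.031 (without GF117 DMSO siRNF20) to 2.06 (without GF120 DMSO siRNF20, adjusted p = 0.0343).

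The adrenergic alpha-2 receptors, which couple to inhibitory G proteins and restrain noradrenaline release, had 1 call. ADRA2C read 7.54 and 7.62 in DMSO siLacZ, 6.28 in RA siLacZ, 7.58 and 7.40 in DMSO siRNF20 and 6.98 and 6.63 in RA siRNF20. It fell in siLacZ cells (log2 -1.30, SE 0.25, adjusted p = 0.0198), and its difference of -0.69 in siRNF20 cells did not pass (SE 0.20, adjusted p = 0.109). The responses differed by 0.61 (SE 0.32, adjusted p = 0.999). The siLacZ call ended without the GF117 (-1.33, adjusted p = 0.0885) or the GF120 DMSO siLacZ array (-1.26, adjusted p = 0.0935) with the mean of the rows (-0.77, adjusted p = 0.0746) and with all 8 arrays (-1.67, adjusted p = 0.440). ADRA2A read 7.26 and 7.12 in DMSO siLacZ, 6.16 in RA siLacZ, 7.05 and 7.05 in DMSO siRNF20 and 6.43 and 5.65 in RA siRNF20. Its differences of -1.03 and -1.01 did not pass (adjusted p = 0.131 and 0.0720) and differed from each other by 0.02 (SE 0.41). Without GF117 RA siRNF20 its difference in siRNF20 cells passed (-1.39, adjusted p = 0.0124), and without GF120 RA siRNF20 it was -0.63 (adjusted p = 0.258). The other adrenergic genes, ADRA2B among them, stood between -0.50 and 0.28 in siLacZ cells, and the kinase genes GRK2 and GRK3 at -0.06 and -0.44.

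In the fit to the 7 arrays no glutamate, muscarinic or dopamine receptor gene was called with RA in either background. The 4 AMPA genes, which carry fast excitatory transmission, stood between -0.81 and 0.67 in siLacZ and between -0.68 and 0.68 in siRNF20 cells, with 40 of their 128 rows brighter than the median row. The 5 kainate genes stood between -0.40 and 0.06 and between -0.88 (GRIK3, SE 0.21, adjusted p = 0.0550) and 0.43. The 7 NMDA genes stood between -0.75 and 0.66 and between -0.12 and 0.85. GRIN2A, an NMDA subunit gene with 22 of 24 rows kept, was at 6.68 and 6.43 in DMSO siLacZ, 7.21 in RA siLacZ, 6.42 and 6.16 in DMSO siRNF20 and 7.35 and 6.94 in RA siRNF20. It was higher on every RA array, in 11 of its rows, but its differences of 0.66 and 0.85 did not pass (adjusted p = 0.275 and 0.0758). GRM4, a metabotropic receptor that lowers transmitter release, was lower on every RA array, also without passing (-0.84 and -0.52, adjusted p = 0.149 and 0.296). The 5 muscarinic genes lay between -0.57 and 0.58 and the 5 dopamine receptor genes between -0.42 and 0.73 over both backgrounds. In the nicotinic family the 11 genes other than CHRNA3 and CHRNB4 did not pass. CHRNA7, from which the rows it shares with CHRFAM7A were left out, read 5.89 and 6.05 in DMSO siLacZ, 5.57 in RA siLacZ, 5.83 and 5.91 in DMSO siRNF20 and 5.11 and 4.89 in RA siRNF20 (-0.40 and -0.87, adjusted p = 0.564 and 0.0758).

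With RNF20 depletion 0 of the 89 members were called, in DMSO or in RA. limma called 0 of all genes in DMSO (0%) and 2 in RA (0.0107%), and at an unadjusted p under 0.05 it had 2 members in DMSO (2.25%, against 2.77% of all genes) and 5 in RA (5.62%, against 7.93%). The members' median differences were 0.09 in DMSO and 0.12 in RA, and those of all genes -0.01 and -0.01. Of the members 7 were higher on each of the 4 siRNF20 arrays than on each of the 3 siLacZ arrays (7.87%, against 2.53% of all genes) and 1, CHRNA1, was lower (1.12%, against 2.74%). The 7 were GABRA2, GLRA1, GLRA2, GRIK2, GRIN3A, HTR1A and ADRB1, and 5 of them rest on 4 rows or fewer. Of the 7, 4 (HTR1A, GRIN3A, GLRA2 and GRIK2) hold rows (1 of 1, 3 of 4, 1 of 4 and 1 of 9) that were not above the median row over the siLacZ arrays. Such rows passed the filter through the siRNF20 arrays and had to be higher there. HTR1A, an inhibitory serotonin receptor, read 3.30 and 3.54 in DMSO siLacZ, 3.80 in RA siLacZ, 4.34 and 5.08 in DMSO siRNF20 and 4.06 and 4.68 in RA siRNF20, from 1 such row. Its difference in DMSO was 1.29 (SE 0.41, adjusted p = 1.000) and 0.09 with no filter on dim rows. GLRA1, the main glycine receptor subunit of the adult spinal cord, differed by 0.81 in DMSO (SE 0.32) and by -0.33 with no filter. CHRNA6 stood at 0.73, GABRA2 at 0.65, CHRM5 at -0.59, CHRNA10 at -0.46, HTR2B at -0.41 and CHRM4 at -0.41, none past the threshold.

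In RA the largest difference between siRNF20 and siLacZ cells was that of GRIN3A, an NMDA subunit that lowers calcium entry. It read 3.74 in RA siLacZ and 5.30 and 5.24 in RA siRNF20, from 4 rows, 3 of them not above the median row over the siLacZ arrays (1.53, SE 0.41, adjusted p = 0.347). HTR3A (0.97, SE 0.28), HTR5A (0.97, SE 0.29) and GRIN2C (0.83, SE 0.33) followed, and CHRNB4 (-0.87, SE 0.46), GRIA2 (-0.72, SE 0.35), GRIK3 (-0.67, SE 0.26) and CHRNA7 (-0.57, SE 0.28) lay at the other end, with adjusted p from 0.370 to 0.686. With all 8 arrays the differences of CHRNB4, GRIN2C and HTR5A changed sign (0.44, -0.02 and -0.09). When the RA response in siLacZ cells was taken from that in siRNF20 cells, 0 members and 0 of all genes (0%) were called by limma, with 4 members (4.49%, against 3.93% of all genes) at an unadjusted p under 0.05, a share near that of all genes: HTR5A, CHRNB4, GRIA2 (-1.14) and GRIN2C (0.98). CHRM5 (1.15) and GRIN3A (1.04) were the others among the highest and CHRNA6 (-0.96) and HTR1A (-0.72) among the lowest, with an adjusted p of 0.999.

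**Figure D4:**
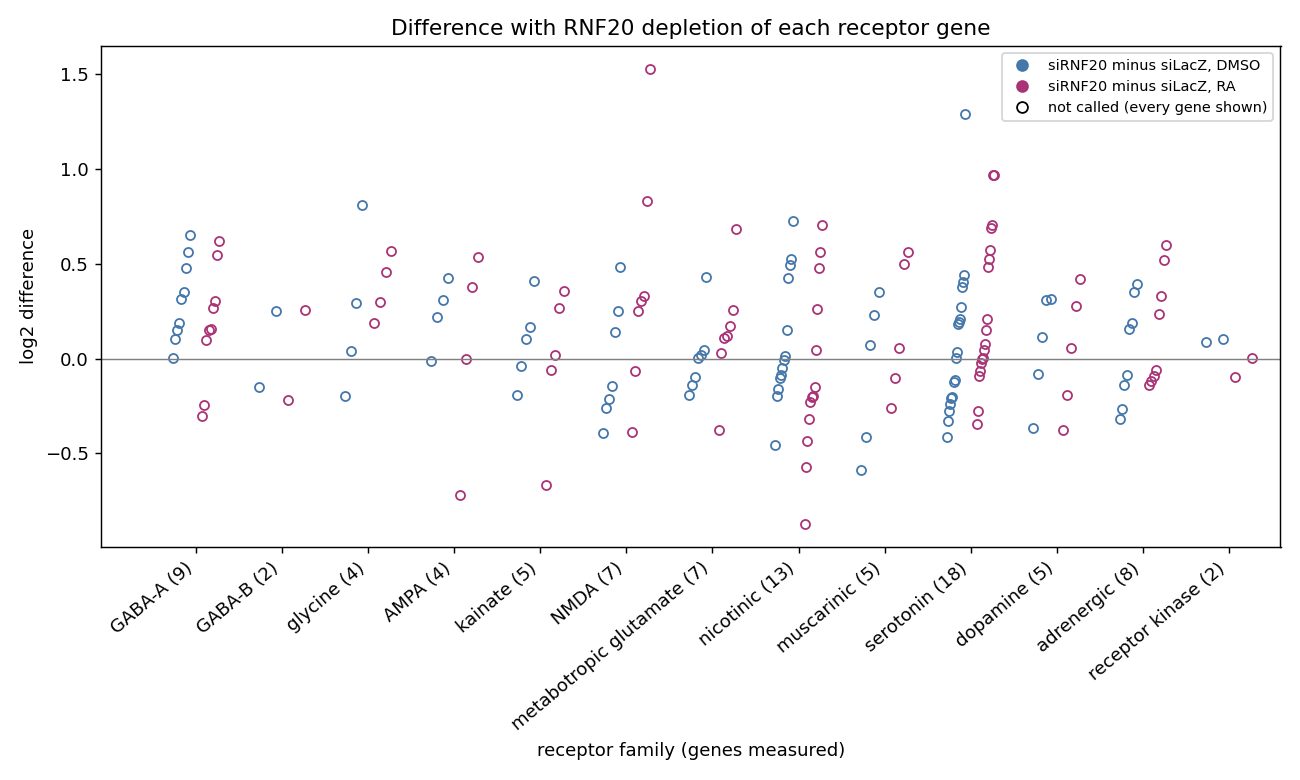
siRNF20 minus siLacZ log2 difference (vertical axis) of each member by family (horizontal axis, with the number of genes measured). Left points of a family are in DMSO (2 and 2 arrays) and right points in RA (2 and 1 arrays). None of the 89 genes was called, and GRIN3A in RA, at 1.53, is the highest point.

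Other genes of transmission give the setting of these receptors. Of 21 further receptor subunit genes 2 rose with RA in siLacZ cells and 0 fell: GABRP, a GABA-A pi subunit (3.89, SE 0.36), and P2RX3, an ATP-gated channel (1.89). In siRNF20 cells GABRP rose (1.95, SE 0.29) and GABRQ (-1.1995) and P2RX5 (-1.52) fell. Of 17 genes of transmitter synthesis and breakdown, the glutamine synthetase gene GLUL rose in both (0.83 and 0.97) and BCHE, a cholinesterase, in siLacZ cells (2.08). Of 19 transporter genes SLC6A2, which takes up noradrenaline, rose in both (2.82, SE 0.31, and 1.17, SE 0.26), and the GABA transporter gene SLC6A11 fell in siRNF20 cells (-0.90). Of 36 scaffold and auxiliary genes 1 rose and 3 fell in siLacZ cells and 0 rose and 3 fell in siRNF20 cells. CNIH3 (-2.59 and -1.81) and CACNG7 (-1.11 and -0.87), which encode auxiliary proteins of AMPA receptors, and the synaptic adhesion gene NLGN4X (-1.16 and -1.39) fell in both, and NLGN1 rose in siLacZ cells (1.196). None of these 4 lists had a call with siRNF20.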

How the data were processed

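Total RNA of 8 cultures of NTera2/D1 cells was measured on Affymetrix exon arrays, 2 per group, called biological duplicates in the labels. The deposited values are linear intensities, 1 per array row, and the authors' background correction, normalization and tools are not given in the sources used here. Arrays have no depth in counts, so their number sets the precision. Of 1384231 rows 354600 carry 1 gene symbol in the platform annotation and were used; rows with several symbols, 31 of which name a member, and rows with none were left out. Of 19497 symbols 2950 were updated through the RefSeq gene table of assembly GRCh38. log2 values were taken with no further normalization; rows at or below the median row (mean over the arrays fitted) were left out and the median of the others was taken as the value of the gene.

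The 4 group means were estimated on 7 arrays by limma 3.58.1 with an intensity trend (R 4.3.3; data.table, version 1.17.8). The 5 contrasts were RA over DMSO with either siRNA, siRNF20 over siLacZ with either treatment, and how far the RA responses differed. Fold changes are 2 to the power of the log2 difference. With 2 arrays against 2 an exact permutation test cannot go below p = 0.333. The fit was checked on simulated data. Figures used Python 3.11.15 and matplotlib 3.10.9. Alternatives were all 8 arrays, the GF number as a block, each array left out, other filters, the mean of rows, an offset, quantile normalization and no trend. The members, lists, left-out array and tests were chosen with earlier results of these data known. Named were the members called, the 4 highest and 4 lowest differences of each contrast, members above the upper quartile of rows on all 7 arrays, RNF20, and up to 3 called genes per direction of each other list; further members stand as family examples chosen after their values were seen. Marker lists of mesenchymal, trophoblast and endoderm cells were also read: with RA in siLacZ and in siRNF20 cells 3 and 1 of 7, 1 and 2 of 5 and 0 and 0 of 6 genes were called. Promoter sequences are RefSeq's (GRCh38.p14); array coordinates are not printed, as the build is not given.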

Additional observations from a re-analysis of the deposited data

Results flagged for a closer look

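In 10 members, the kinase gene GRK2 among them, every array moved one way in one setting and the other way in its counterpart. That was 11.2%, against 10.5% of all genes, a share near that of all genes. With RA it was 4 genes (4.49%, against 5.82%) and with siRNF20 8 genes (8.99%, against 6.93%). None of these passed in limma's test of the difference between the RA responses (adjusted p = 0.950 for HTR5A and 0.999 for the others). CHRNA6 stood at 0.62 with RA in siLacZ cells and -0.34 in siRNF20 cells, and at 0.73 with siRNF20 in DMSO and -0.23 in RA. GRIA2 stood at 0.47 and -0.68 with RA, and at 0.43 and -0.72 with siRNF20, in the same order. With RA, GRIN2C stood at -0.39 and 0.59 and CHRNA2 at -0.41 and 0.20. With siRNF20, GABBR1 stood at -0.15 in DMSO and 0.26 in RA, HTR5A at -0.28 and 0.97, ADRA1B at 0.35 and -0.14, DRD1 at -0.36 and 0.28, DRD2 at 0.31 and -0.38, and GRK2 at 0.103 and -0.099. The rows kept ranged from 1 (HTR5A) and 2 (CHRNA6) to 37 (GRK2).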

How the results depend on the processing

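Dim signal and the number of arrays limit these results. With all 8 arrays the members called fell to 0 with RA in siLacZ and 0 in siRNF20 cells, and the members' median for RA in siLacZ cells was -0.058 (all genes -0.49). The shift of all genes was then 0.43 (siRNF20 in RA) and 0.46 (difference between responses); there CHRNB4 (0.44 and 0.48), GRIN2C in RA (-0.016), HTR5A in RA (-0.086) and GABRB2 with RA in siLacZ cells (-0.11) changed sign. GF117 and GF120 were not used as pairs, their meaning being unstated in the labels, although deviations of arrays with one number correlated at 0.297, 0.301 and 0.364. With that number as a block 12 members (13.5%, against 9.57% of all genes) were called with RA in siLacZ cells, the 8 among them and GABRB2, GRIN2A, HTR1B and HTR5A, and 14 (15.7%, against 10.5%) in siRNF20 cells, the 5 among them and ADRA2A, ADRA2C, CHRNA5, CHRNA7, CHRNB4, GABRB2, GLRA4, GRIK3 and GRIN2A; with siRNF20 and for the difference it called 0. Leaving out each array, with the fit that swaps GF117 for GF120 among the RA siLacZ arrays as one of these fits, gave 4 to 51 members called with RA in siLacZ cells (median -0.20 to 0.11), 2 to 7 in siRNF20 cells (median -0.192 to -0.0097), 0 to 45 with siRNF20 in RA (median 0.039 to 0.201, 0.089 without GF120 of RA siRNF20) and 0 to 33 for the difference (median -0.077 to 0.052). Without GF120 of RA siLacZ the 7 arrays hold no array of that group, so its 3 contrasts have no value. In the swapped fit the RA siLacZ group is the GF117 array alone, the one unlike the rest, so its counts of calls are not given. With RA in siLacZ cells the same fits gave GLRA4 -1.43 to 0.14, HTR1D -0.94 to 2.53 and GABRB2 -0.54 to 1.47. With siRNF20 in DMSO they gave CHRM5 -1.72 to 0.55, CHRNA10 -1.16 to 0.24, HTR2B -1.43 to 0.60 and CHRM4 -1.11 to 0.29. With siRNF20 in RA they gave CHRNB4 -1.19 to 0.29, GRIK3 -0.75 to 0.044, CHRNA7 -0.68 to 0.089, GRIN2C -0.89 to 1.11, HTR5A -1.14 to 1.19 and GRIN3A -0.23 to 1.53. For the difference they gave CHRNB4 -1.76 to 0.39, GRIN2C -0.73 to 1.26, GRIN3A -0.71 to 1.35 and HTR5A -0.86 to 1.47. Within GF117 alone the medians were 0.016 (RA in siLacZ), -0.20 (RA in siRNF20), -0.071 (siRNF20 in RA) and -0.27 (difference), and HTR1D stood at -0.94 with RA in siLacZ cells; within GF120 the median for siRNF20 in RA was 0.21. With no filter on dim rows HTR2B turned to -0.0074 with RA in siRNF20 cells. With siRNF20 in DMSO CHRM5 turned to 0.64, HTR2B to 0.026, CHRNA6 to -0.43 and GLRA1 to -0.33, and in RA GRIA2 to 0.10 and GRIN2C to -0.088. For the difference, GRIA2 turned to 0.16, CHRNA6 to 0.32, HTR1A to 0.055, GRIN2C to -0.36, GRIN3A to -0.33 and CHRM5 to -1.85. With the stricter filter CHRNA10 turned to 0.24 in DMSO and GRIA2 to 0.0061 for the difference, whose median was 0.11. The cause of these changes was not tested.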
